A study of Drosophila melanogaster with 33 samples.

Results

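The 77 genes described here carry the symbols Rab, Sec or Vps followed by a digit in the Ensembl annotation of the fly genome (dm6 coordinates), and comprise 31 Rab, 19 Sec and 27 Vps genes among 13968 protein-coding genes on the 7 chromosome arms. Each was searched for binding of Lola-I, 1 of the transcription factor isoforms made from the *lola* locus (*longitudinals lacking*). The series holds 33 Drosophila melanogaster embryo samples in 12 groups. Used here were the 2 replicate Lola-I ChIP-seq libraries of wild-type OregonR embryos aged 14-17 h, precipitated with a custom rabbit polyclonal antibody, each with 1 deposited peak list. The other 31 samples, which include Lola-I mutant ORC4 and Lola-I rescue ORC4 embryos, wild-type embryos of 2-4 h, and GAF, Rpb3 and WCE libraries, were not analysed here. The labels do not say whether the 2 libraries came from separate embryo collections. The chromatin came from whole embryos, so binding in few cells and weak binding in many cells cannot be told apart.

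Vesicles carry proteins and membrane between the compartments of a cell. Small GTPases of the Rab family mark each compartment and recruit motors and tethers. Sec and Vps genes were named after yeast secretion and vacuolar sorting mutants. Sec proteins include the translocon that threads new proteins into the endoplasmic reticulum (ER), the COPII coat that buds vesicles from it, and the exocyst that tethers vesicles at the plasma membrane. Vps proteins include the ESCRT machinery, which sorts cargo at endosomes, and the HOPS and CORVET tethers of the lysosomal route. They also include the retromer and GARP complexes of the return routes. In late embryos these routes serve every tissue, while regulated secretion is used most by neurons and glands. Lola proteins are zinc-finger factors with a BTB domain, known in flies above all from axon guidance.

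The DNA at peaks of 7 of these genes is shown first, to let the words described below be seen in place. Capitals mark 4 words sought on either strand. AAAGCT was described in an earlier analysis of these same peaks. GAGAG is the core of GAGA elements. TATCGATA is the DNA replication-related element (DRE) and GGTCACAC is core promoter Motif 1, both known from promoters of widely expressed fly genes. A match on the other strand appears as the reverse complement. Each line runs 5′ to 3′ in the direction of the gene, from the RefSeq Release 6 genome. Inside a 5′ UTR, 30 bases about AAAGCT are shown. Elsewhere the replicate 2 summit and up to 50 bases on either side are shown, ended at most 30 bases into a transcript. Rab26 is shown for its peak in both replicates, and its lines are chr3L:21319868-21319897 (+) and chr3L:21319826-21319855 (+) in the main peak and chr3L:21318675-21318775 (+) at a second peak near the gene start. The Rab27 lines are chrX:1476692-1476721 (-) and chrX:1476868-1476897 (-). Rab27 was chosen after its values were seen. So were the other 5, to show the DRE and Motif 1. They are Sec63 at chr3L:7360480-7360580 (+), Rab14 at chr2L:14355072-14355172 (+), Rab30 at chr2L:7032609-7032709 (-), Rab6 at chr2L:12109090-12109190 (-) and Vps4 at chrX:17907634-17907721 (+).
Rab26, nearest the main summit: aatgagaaagtgAAAGCTcaggataaaagc
Rab26, farther upstream: gaaagcctagatAAAGCTcagagcaaatcc
Rab26, second peak: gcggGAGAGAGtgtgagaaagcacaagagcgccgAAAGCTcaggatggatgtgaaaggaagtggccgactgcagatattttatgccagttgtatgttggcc
Rab27, downstream of the summit: AAAGCTggcgcaAGCTTTggctgAAAGCTg
Rab27, upstream of the summit: tcgtcgGAGAGcAAAGCTtaggcgccgtcc
Sec63: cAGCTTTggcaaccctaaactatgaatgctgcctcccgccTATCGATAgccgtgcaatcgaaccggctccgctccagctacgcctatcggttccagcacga
Rab14: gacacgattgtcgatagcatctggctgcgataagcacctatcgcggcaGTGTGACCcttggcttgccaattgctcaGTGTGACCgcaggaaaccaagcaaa
Rab30: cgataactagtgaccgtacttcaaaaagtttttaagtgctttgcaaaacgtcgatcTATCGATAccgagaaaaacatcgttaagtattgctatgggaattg
Rab6: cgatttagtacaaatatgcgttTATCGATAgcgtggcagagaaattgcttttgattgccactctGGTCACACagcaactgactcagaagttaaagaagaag
Vps4: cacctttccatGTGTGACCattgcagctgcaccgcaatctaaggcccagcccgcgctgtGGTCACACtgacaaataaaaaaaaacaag
The main Rab26 peak and its second peak share a run of 13 bases, GAAAGCTCAGGAT, within 50 bp of each summit.

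A gene was counted as having a promoter summit where the deposited peak summit lay within 200 bp of any of its annotated transcription start sites (TSSs). Few of the trafficking genes had one in both replicates, and those few were all Rab genes. In replicate 1, 3 of 77 genes (3.90%, 95% Wilson interval 1.33 to 10.8%) had a promoter summit, against 5.5% of protein-coding genes. In replicate 2, 29 of 77 (37.7%, interval 27.7 to 48.8%) had one, against 30.9% of protein-coding genes. The same 3 genes, Rab3, Rab26 and Rab32, had one in both lists (3.90%, against 5.23% of protein-coding genes), and no gene had one in replicate 1 alone. All these shares lie near the background, and both background values fall within the intervals. The intervals cover counting error over genes only, and genes are not independent of each other.

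The 2 lists differ widely in length. Replicate 1 held 1750 peaks on the chromosome arms and replicate 2 held 9665. With replicate 2 cut to its 1750 highest-scoring peaks, 5 of 77 trafficking genes (6.49%) had a promoter summit, against 6.39% of protein-coding genes. These 5 were 4 Rab genes and Sec63, with no Vps gene. Sequencing depth is unknown from peak lists, so a gene without a summit is one where no peak was called, which is not the same as no binding.

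Among the families, Rab genes had the largest share in replicate 2 and Vps genes the smallest, although with any base of a peak counted in place of its summit the Vps share (33.3%) passed that of Sec genes (31.6%). A promoter summit was found in 16 of 31 Rab genes (51.6%, interval 34.8 to 68.0%), 6 of 19 Sec genes (31.6%, interval 15.4 to 54.0%) and 7 of 27 Vps genes (25.9%, interval 13.2 to 44.7%). The Rab interval lies above the 30.9% of protein-coding genes, the other 2 intervals include it, and all 3 overlap one another. With each summit given to its nearest TSS only, 13 of 31 Rab genes had one (41.9%, interval 26.4 to 59.2%), and the interval then included the 27.7% of protein-coding genes. With canonical TSSs only the count was also 13, against 26.5%, again within the interval. In replicate 1 the counts were 3 of 31 Rab genes (9.68%, interval 3.35 to 24.9%), 0 of 19 Sec genes (interval up to 16.8%) and 0 of 27 Vps genes (interval up to 12.5%). All 3 of these intervals include the 5.5% of protein-coding genes with a replicate 1 promoter summit. No test was made of the families against each other or against the background.

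**Figure D1:**
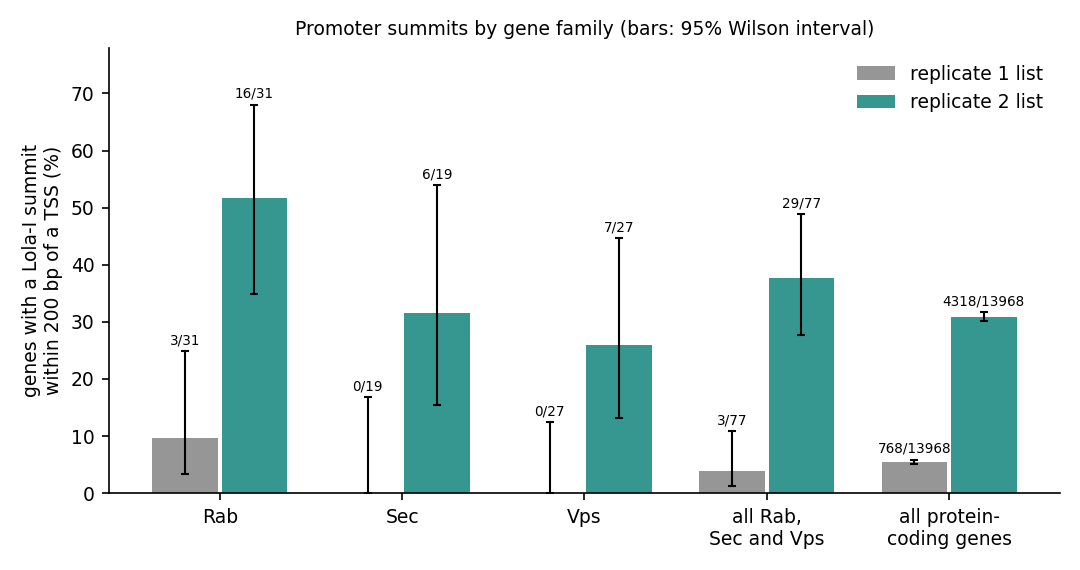
Share of genes (y axis, %) with a Lola-I summit within 200 bp of a TSS in the replicate 1 list (grey) and the replicate 2 list (teal), for the Rab, Sec and Vps genes, all 77 together, and all protein-coding genes; lines are 95% Wilson intervals and numbers are gene counts. Rab genes reach 51.6% in replicate 2, above the 30.9% of all protein-coding genes, which the Sec and Vps intervals include. With nearest or canonical TSSs only, the Rab interval includes the background too. In replicate 1, Sec and Vps genes have no summit, and the 5.5% of all protein-coding genes lies within the intervals of all 3 families.

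Peaks were ranked within each list by the deposited score, with rank 1 the highest, and fold enrichment is the peak's own value as deposited by the authors. Positions are in bp from the nearest TSS, negative when upstream. All 3 Rabs of regulated secretion had a replicate 2 promoter summit ranked within the first 1000 of 9665, as had 3.62% of all protein-coding genes. The roles were assigned with earlier results known, so the count is a description. Rab3, the Rab of synaptic vesicles, lies on arm 2R at 10721335 to 10729203 on the minus strand and has 1 TSS. Its summit lay at -50 bp in replicate 1, with rank 828 and a fold enrichment of 4.28, and at -62 bp in replicate 2, with rank 697 and a fold enrichment of 40.1. The summits were 12 bp apart, and the rank was near the middle of the replicate 1 list (percentile 52.7) but high in replicate 2 (percentile 92.8).

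Rab26, known in flies and mammals from secretory and synaptic vesicles, spans 21318774 to 21335027 on the plus strand of 3L. Its replicate 1 summit lay at -116 bp, with rank 213 and a fold enrichment of 12.8. In replicate 2 the summit lay at -121 bp, with rank 409 and a fold enrichment of 56.9, 5 bp from that of replicate 1. Both lie before an internal TSS at 21320007, used by 1 annotated transcript, and inside the 5′ UTR of the 3 transcripts that start at 21318774. A second replicate 2 peak, with rank 1322 and a fold enrichment of 20.8, lay at -49 bp from the TSS at 21318774 and -75 bp from that of lncRNA:CR45674. Replicate 1 had no summit within 200 bp of that TSS, its nearest being 708 bp away. The TSS at 21322381, used by 2 transcripts, had its nearest summit 2490 bp away in replicate 1 and 2495 bp away in replicate 2.

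Rab27, a Rab known from docking of secretory granules in mammals, spans 1473884 to 1476974 on the minus strand of X. Its replicate 2 summit lay at 188 bp inside the 5′ UTR, with rank 675 and a fold enrichment of 44.6. A replicate 1 peak with rank 355 and a fold enrichment of 10.9 overlapped it, with the summit 30 bp away at 218 bp. Rab27 is thus counted in replicate 2 alone only because the replicate 1 summit falls 18 bp outside the limit.

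Rab32, the *lightoid* gene that acts in the lysosome-related pigment granules of the fly eye, had the highest rank of all 77 genes in replicate 2. It lies on arm 2R at 9177864 to 9186342 on the minus strand. The replicate 1 summit lay at -5 bp, with rank 220 and a fold enrichment of 13.6. In replicate 2 the summit lay at 1 bp, with rank 238 and a fold enrichment of 76.6, 6 bp from that of replicate 1. Both lie at the TSS farthest upstream, used by 3 of the 7 annotated transcripts. The TSS of the transcript tagged canonical had no promoter summit, with the nearest 5049 bp away in replicate 1 and 2648 bp away in replicate 2. Rab26 and Rab32 were therefore counted in both lists through TSSs that are not canonical, and with canonical TSSs only, 1 of 77 genes (Rab3) had a summit in both lists.

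The other Rabs of endosomes and lysosomes had promoter summits in replicate 2 alone and further down the list. With Rab32, 6 of these 10 Rabs had a replicate 2 promoter summit, against 30.9% of protein-coding genes. Rab14 ranked 1970 with a fold enrichment of 10.2 and a summit at -23 bp, before its upstream TSS at 14355145, which is not the canonical one. Rab11, the Rab of recycling endosomes, ranked 3590 with a fold enrichment of 7.07 and a summit at -23 bp. Rab7, the Rab of late endosomes, ranked 4038 with a fold enrichment of 6.51 and a summit at -58 bp. Rab5, the Rab of early endosomes, had 2 promoter summits, at -22 bp with rank 4604 and at 14 bp of a second TSS with rank 6812. Rab21 ranked 6042. The nearest replicate 1 summit to any TSS of these 5 genes was 3539 bp away, at Rab14. Rab4, Rab9, Rab23 and Rab35 had no promoter summit.

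Among 9 Rabs of the secretory route and the Golgi, 6 had a promoter summit in replicate 2 and none in replicate 1, against 30.9% and 5.5% of protein-coding genes. Rab30 ranked 3029 with a fold enrichment of 9.27 and a summit at -53 bp. Rab2, which acts between the ER and the Golgi, ranked 3643 with a fold enrichment of 5.92 and a summit at -41 bp. Rab8, of transport to the plasma membrane, ranked 4496, Rab18 ranked 5904, and Rab1, of ER-to-Golgi transport, ranked 6059. Rab6, of the Golgi, ranked 8266 with a fold enrichment of 3.06 and a summit at -24 bp. This was the lowest rank of any Rab gene with a promoter summit. Rab10, Rab19 and Rab39 had none. None of the 5 Rab9-related genes of the X chromosome (Rab9D, Rab9Db, Rab9E, Rab9Fa and Rab9Fb) and not Rab40 had a promoter summit. The Rab9-related genes resemble each other, and whether reads could be placed among them was not tested. Of 3 regulators that carry Rab symbols, Rab3-GEF, which activates Rab3, had a replicate 2 summit at -183 bp with rank 7172, while Rab3-GAP and Rab3GAP1 had none.

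In replicate 2, all 4 translocon genes had a promoter summit and none of the 6 exocyst genes did, where 30.9% of protein-coding genes had one. Sec63, an ER membrane partner of the translocon, ranked 1568 with a fold enrichment of 9.69 and a summit at -31 bp. Sec61gamma, a small subunit of the channel, ranked 2812 with a fold enrichment of 9.41 and a summit at 3 bp. Sec61beta, the other small subunit, ranked 3051 with a fold enrichment of 6.48 and a summit at -45 bp. Sec61alpha, which forms the channel itself, ranked 5340 with a fold enrichment of 4.37 and a summit at -1 bp. In replicate 1 none of these 4 had a promoter summit. The closest was a peak with rank 1004 and a fold enrichment of 2.67 at -421 bp from the Sec63 TSS. It overlapped a replicate 2 peak at -466 bp, with rank 1010 and a fold enrichment of 15.1, which outranks the Sec63 promoter peak. Sec61alpha likewise had a better-ranked replicate 2 peak outside the limit, at -311 bp with rank 3105 and a fold enrichment of 6.94.

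Of 6 genes for the COPII coat and its scaffold, Sec24CD, a cargo-binding subunit, ranked 4204 with a fold enrichment of 5.41 and a summit at -94 bp. Sec13, of the outer cage, ranked 5444 with a fold enrichment of 4.03 and a summit at 22 bp of a TSS that is not canonical. A stronger replicate 2 peak, with rank 1039 and a fold enrichment of 21.3, lay just outside the limit at -220 bp from its canonical TSS, with no overlapping peak in replicate 1. Sec16, Sec23, Sec24AB and Sec31 had none. The exocyst genes Sec3, Sec5, Sec6, Sec8, Sec10 and Sec15 had none in either list, nor did the ER SNARE genes Sec20 and Sec22 or Sec71, an activator of Arf GTPases. These counts rest on few genes of replicate 2 and were not tested.

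Among genes with a promoter summit in replicate 2, Vps genes had the lowest median rank of the 3 families. Their 7 promoter peaks lay at ranks 5501 to 8396, with fold enrichments of 3.05 to 4.65. Of 9 ESCRT genes, Vps2 (rank 5754), Vps28 (rank 7378), Vps4 (rank 7729, fold enrichment 4.01) and Vps60 (rank 8396, fold enrichment 3.48) had a promoter summit. Vps4 is the ATPase that takes ESCRT filaments apart, and its summit lay at -8 bp. Vps20, Vps24, Vps25, Vps36 and Vps37B had none. Of 6 genes for HOPS, CORVET and related tethers, 2 had a promoter summit. Vps33B ranked 5501 with a summit at -16 bp, and Vps16A ranked 6722 with a summit at -65 bp. A better-ranked replicate 2 peak lay outside the limit at -389 bp from the Vps33B TSS. It had rank 2817, a fold enrichment of 8.94 and no overlapping peak in replicate 1. Vps8, Vps11, Vps16B and Vps39 had no promoter summit. Vps13, a lipid transfer protein, ranked 7449 with a summit at 27 bp, and Vps13B and Vps13D had none. None of the 3 retromer genes (Vps26, Vps29 and Vps35) and none of the 4 GARP and EARP genes (Vps50, Vps51, Vps52 and Vps53) had a promoter summit in either list. The same held for Vps15, of the phosphatidylinositol 3-kinase complex, and Vps45, a partner of SNAREs. Of all protein-coding genes, 30.9% had a promoter summit in replicate 2 and 5.5% in replicate 1. The counts for these complexes rest on few genes and were not tested. With the higher-scoring 50% of each list, 0 of 27 Vps genes had a promoter summit in replicate 2, against 17.6% of protein-coding genes.

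**Figure D2:**
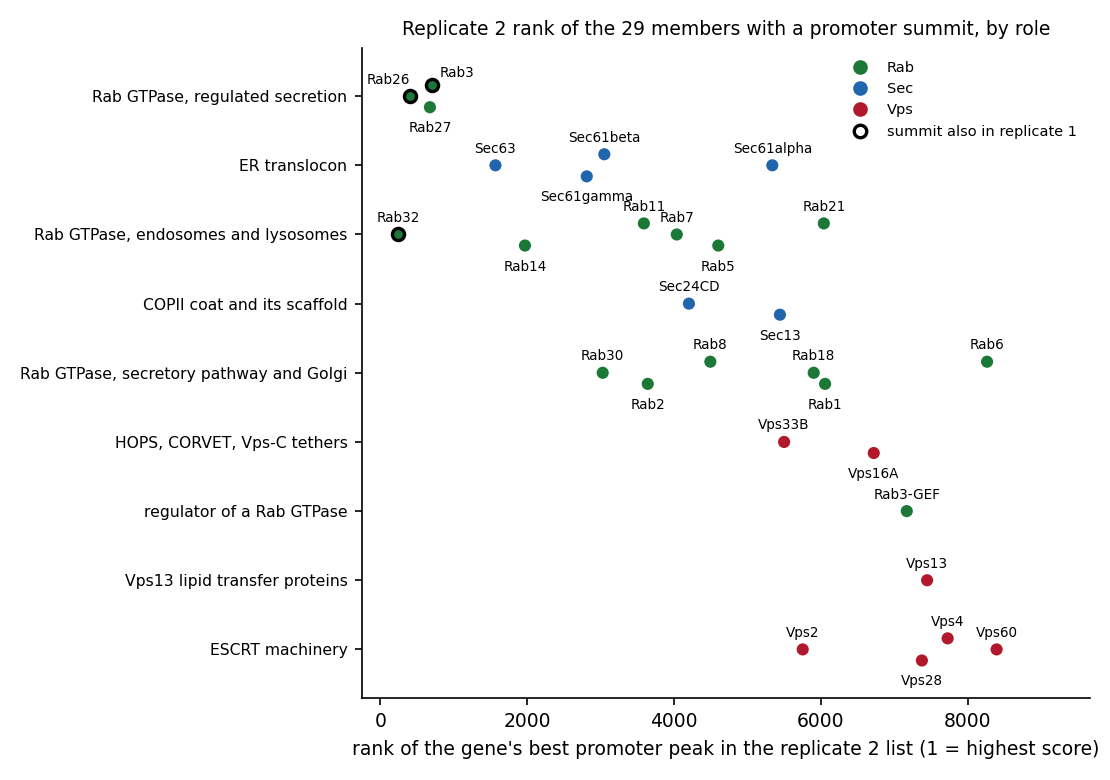
Rank of the best promoter peak in the replicate 2 list (x axis, 1 is the highest score, 9665 peaks) of the 29 trafficking genes with a promoter summit, 1 point per gene in rows by role and coloured by family, with black outlines for genes that also have a promoter summit in replicate 1; points are shifted vertically for legibility only. Rab32, Rab26, Rab27 and Rab3 rank from 238 to 697, and the 7 Vps genes from 5501 to 8396.

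The ranks of trafficking promoters in replicate 2 were spread much as those of other genes. The best promoter peak of a trafficking gene had a median percentile of 52.4 (n = 29), against 55.8 for protein-coding genes (n = 4318). The family medians were 60.3 for Rab genes, 62.5 for Sec genes and 23.7 for Vps genes. The median fold enrichment was 5.41 for trafficking genes, against 6.0 for protein-coding genes. Of the 29 trafficking genes, 4 had a rank within the first 1000 (Rab32, Rab26, Rab27 and Rab3). Of the protein-coding genes with a promoter summit, 11.7% did. Ranking by fold enrichment in place of score put the same 4 genes first, with a median percentile of 49.7.

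The trafficking promoters found in both lists had high replicate 2 ranks, as had most such promoters of other genes. With a replicate 2 rank within the first 1000, 3 of 4 trafficking genes also had a promoter summit in replicate 1, against 91.1% of protein-coding genes (461 of 506), and the fourth was Rab27. With a rank over 1000, 0 of 25 did, against 7.08% of protein-coding genes (270 of 3812). In the class from 1001 to 2000, Rab14 and Sec63 had no promoter summit in replicate 1, while 38.5% of protein-coding genes had one. Most trafficking genes of replicate 2 thus had peaks in the range of ranks that replicate 1 rarely held for any gene.

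**Figure D3:**
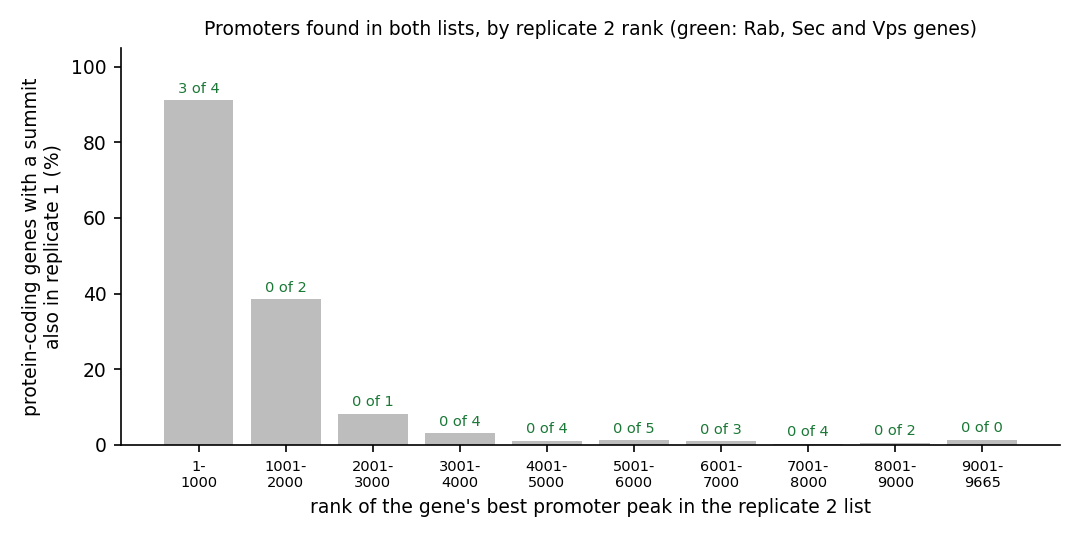
Share of protein-coding genes whose replicate 2 promoter peak was matched by a promoter summit in replicate 1 (y axis, %), by rank class of the best replicate 2 peak (x axis), with the counts for Rab, Sec and Vps genes above each bar in green. The share is 91.1% in the first class and 38.5% in the second, and the only trafficking genes found in both lists are 3 of the 4 in the first class.

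Summits lay just before the TSS, at trafficking genes as elsewhere. The best replicate 2 summit was upstream of the TSS at 24 of 29 trafficking genes (82.8%), against 79.0% of protein-coding genes. Its median position was -26 bp at trafficking genes and -38 bp at protein-coding genes. The quartiles of its position were -53 and -11 bp at trafficking genes, against -72 and -7 bp at protein-coding genes. The trafficking genes with the best summit farthest from the TSS were Sec24CD (-94 bp), Rab26 (-121 bp), Vps60 (-172 bp), Rab3-GEF (-183 bp) and Rab27 (188 bp). The last 3 were the members nearest to the limit of 200 bp. The members closest to it from outside were Vps39 at 211 bp, Rab35 at 214 bp, Vps45 at 235 bp, Sec23 at 307 bp and Vps8 at 355 bp, all in replicate 2. Within 500 bp, 11 of 27 Vps genes (40.7%) had a replicate 2 summit, against 37.3% of protein-coding genes, so that the Vps share, below the background within 200 bp, was above it at this distance.

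**Figure D4:**
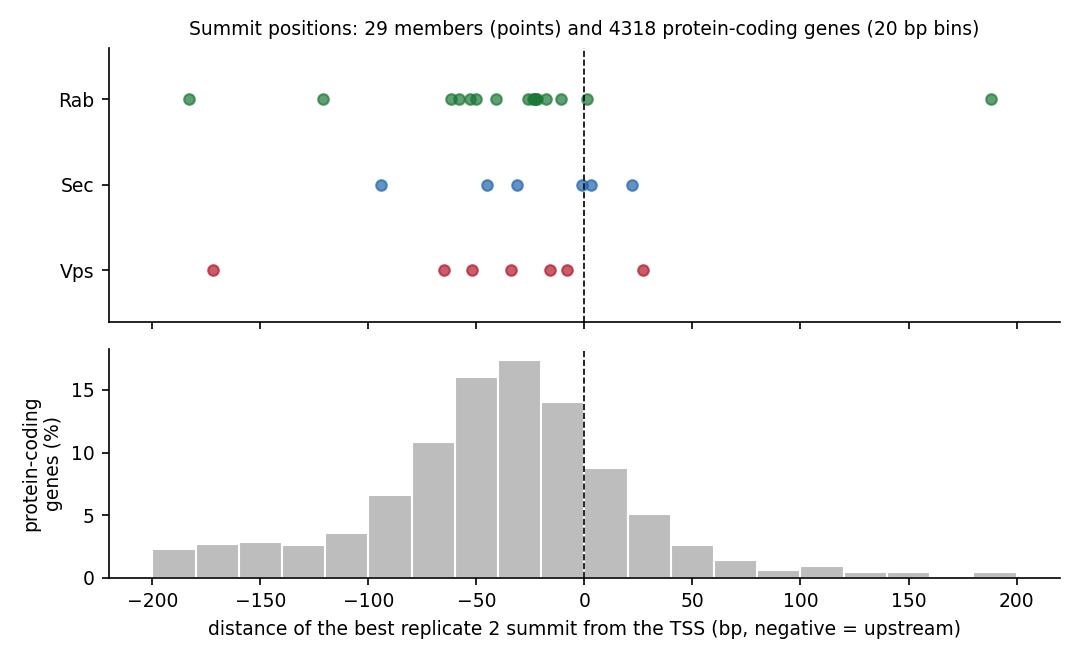
Distance of the best replicate 2 summit from the TSS (x axis, bp, negative upstream) for the 29 trafficking genes with a promoter summit (upper panel, 1 point per gene by family) and for 4318 protein-coding genes (lower panel, % per 20 bp bin). Most points of all 3 families fall just upstream of the TSS, as the bulk of protein-coding genes does, with median positions of -26 and -38 bp.

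Several of these promoters are shared with a neighbouring gene, so that the peak cannot be given to 1 gene. Of 31 replicate 2 promoter peaks at trafficking genes, 11 (35.5%) had a TSS of another gene within 200 bp, 1 of them of a noncoding gene. Counted the same way, once for each gene at a peak, 1058 of 4934 pairs of a protein-coding gene and a promoter peak (21.4%) had one. At 10 of the 11 the summit was upstream of both TSSs. The other TSS was the nearer one at 5 genes. These were Rab2 (-41 bp, with *Mob4* at -37 bp), Rab7 (-58 bp, with *Epp* at -34 bp), Rab21 (-50 bp, with *Coa7* at -36 bp), Vps16A (-65 bp, with *TrpRS* at -50 bp) and Vps60 (-172 bp, with *anchor* at -27 bp). The partners at the other 6 peaks were *l(2)34Fd* at Rab14, *Caper* at Rab30, *Usp32* at Rab8, *Axud1* at Rab5, *boca* at Vps13 and lncRNA:CR45674 at the second Rab26 peak. None of the main peaks at Rab3, Rab26, Rab27 and Rab32 had another gene's TSS within 200 bp.

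Words were counted in windows that reach 100 bp to either side of the replicate 2 summits. At ranks within the first 1000, AAAGCT occurred in 4 of 4 trafficking peaks (Rab3, Rab26, Rab27 and Rab32), against 81.9% of promoter peaks of protein-coding genes (403 of 492). DRE or Motif 1 occurred in 0 of these 4, against 8.74%. At ranks over 1000, AAAGCT occurred in 5 of 27 trafficking peaks (18.5%), against 19.7%. These 5 were the second peak of Rab26, Sec63, Sec61gamma, Vps2 and Vps33B. DRE or Motif 1 occurred in 12 of 27 (44.4%), against 19.5%. Separately, the DRE occurred in 8 (29.6%, against 11%) and Motif 1 in 6 (22.2%, against 9.69%). The DRE peaks at Rab2, Rab7, Rab8, Rab14, Rab30 and Vps16A also had another gene's TSS within 200 bp, while those at Rab6 and Sec63 did not. GAGAG occurred in 4 (14.8%, against 37.9%), and 10 of 27 (37.0%) held none of the 4 words, against 36.3%. Within 50 bp of all 31 replicate 2 summits AAAGCT occurred in 5 trafficking peaks (16.1%, against 18.1%), while within 100 bp it occurred in 9 (29%, against 26.6%).

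The windows set the search, so matches lie within 100 bp of a summit by construction. In the main Rab26 peak AAAGCT began at -127 and -169 bp from the internal TSS, in the same direction as the gene, which is 6 and 48 bp before the replicate 2 summit. In Rab3 it began at -55 and -78 bp from the TSS. In Rab32 it began at -53 bp, with a match on the other strand at -63 bp. Rab27 held 4 matches in the window of 100 bp on either side, and none lay within 50 bp of the summit. Of these, 3 are in the line shown from downstream of the summit and 1 in the line from upstream. The GAGAG in the upstream Rab27 line lies outside the window, while another, not shown, began 23 bp before the summit. The DRE began at -41 bp in Sec63, -47 bp in Rab30, -52 bp in Rab6 and -18 bp in Rab8. Motif 1 began at 1 bp and, on the other strand, at -47 bp in Vps4, and lay on the other strand at -25 and 3 bp in Rab14. A match is a run of letters and does not show what binds there.

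The DRE was also common in trafficking promoters where no peak was called. Promoters were read as the 300 bases from 250 before to 50 after the canonical TSS of each gene. Summits were counted at any TSS, and 25 of the 77 genes had a replicate 2 summit at the canonical one. The DRE occurred in 18 of 77 trafficking genes (23.4%), against 8.94% of protein-coding genes. It occurred in 8 of 29 genes with a replicate 2 summit at any TSS (27.6%, against 12.5%) and in 10 of 48 without one (20.8%, against 7.36%). Motif 1 occurred in 11 of 77 (14.3%, against 7.52%), in 4 of 29 with a summit (13.8%, against 11%) and in 7 of 48 without one (14.6%, against 5.98%). GAGAG occurred in 13 (16.9%, against 30.2%) and AAAGCT in 19 (24.7%, against 22.1%). AAAGCT was found in 11 of 29 genes with a replicate 2 summit at any TSS (37.9%, against 28.2%) and in 8 of 48 without one (16.7%, against 19.4%). These shares are descriptions with no test, and shared promoters enter them under both genes.

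Base composition moved with the presence of a summit. The median GC content of the 300 bases was 40.3% in the 29 trafficking genes with a replicate 2 summit and 33.0% in the 48 without. In protein-coding genes with and without one it was 40.7% and 37.0%. The part of base composition in the calls was not tested. Median gene length was 3.07 kb for trafficking genes and 2.16 kb for protein-coding genes. Among trafficking genes the median was 3.09 kb with a replicate 2 summit and 3.00 kb without, while among protein-coding genes it was 4.66 kb with one and 1.70 kb without.

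Peaks inside the gene, over 200 bp from any TSS, were counted separately. In replicate 2, 6 of 77 (7.79%) had such a summit, against 13.1% of protein-coding genes, and in replicate 1 Rab27 alone did (1.30%, against 4.04%). That Rab27 summit is the one described above at 218 bp, just outside the promoter limit. In the same way, 1 of the Rab35 summits of replicate 2 is the one at 214 bp. The 6 genes were Rab5 (best rank 1988, fold enrichment 11.5), Rab35 (2 summits, best rank 2504, fold enrichment 11.4), Rab32 (rank 3736), Sec63 (rank 4317), Sec61alpha (rank 5449) and Vps24 (rank 8955).

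Other trafficking genes have symbols outside the 3 families. Of 98 such genes, 44 (44.9%) had a promoter summit in replicate 2, against 30.9% of protein-coding genes. In replicate 1, 1 gene did (1.02%, against 5.5%), and 0 had one in both lists. That gene was *Rala*, which encodes a Ral GTPase that binds the exocyst, with a summit at -175 bp, rank 739 and a fold enrichment of 5.58. In replicate 2 the counts were 8 of 12 clathrin coat and adaptor genes, 15 of 29 SNARE and fusion genes, 5 of 10 Arf-family GTPases, 4 of 8 further ESCRT subunits, 3 of 6 further HOPS and phosphatidylinositol 3-kinase subunits, 2 of 7 COPI coat genes, 2 of 10 TRAPP tether genes, 1 of 5 RabX genes and 4 of 9 general regulators, a list that also holds *Rala*. Neither of the 2 exocyst genes with other symbols had one, as with the 6 named Sec.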

How the data were processed

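Embryos were fixed with formaldehyde and sonicated chromatin was immunoprecipitated and sequenced, per the labels' protocols. The authors deposited 1 peak list for each of the 2 Lola-I libraries, without a header and in the 10 columns of the narrowPeak layout, so peaks were called per replicate. The submitters' processing notes name dm6, CASAVA 1.8.2 and Bowtie 1.0.0, and the peak caller and its control are not given in the sources used here. The deposited score equals 10 times the deposited −log10 p-value with decimals dropped in every peak. The authors' list also gives a fold enrichment, taken as a ratio to the background that the caller estimated, and a −log10 q-value. These values depend on each library's own depth, which peak lists do not show, so ranks were formed within a list and over the 7 chromosome arms (1750 of 1759 peaks in replicate 1, 9665 of 9674 in replicate 2).

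TSSs came from Ensembl release 115 (BDGP 6.54), transposable elements left out, and bases from the RefSeq Release 6 genome. Each uses dm6 coordinates. Summit assignment was tested on simulated summits. Python 3.11.15, NumPy 2.4.6, SciPy 1.17.1, pandas 2.3.3 and matplotlib 3.10.9 were used. Shares carry 95% Wilson intervals, and no tests were made, since there is 1 group of 2 libraries. Where a gene had several promoter peaks, the best-ranked stood for it. In both lists means a promoter summit in each. Words were sought on both strands within 100 bp of the summit or in 300 bases at the canonical TSS, and GAGAG and the other words may overlap. The genes, gene lists, roles and words were chosen with earlier results of these data known. Named in full were genes with a summit in both lists, the 10 best-ranked and 3 worst-ranked with one in replicate 2 alone, those nearest the distance limit, and other trafficking genes with one in both lists. The remaining genes are named to account for each member, and *Rala* after its values were seen. Of 99 symbols of other trafficking genes, 98 matched the annotation. Alternatives covered the distance, the TSS set, the peak threshold, the overlap rule, the ranking and the window. Of the samples not used, 7 have a title and a stage label that differ.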

Additional observations from a re-analysis of the deposited data

How the results depend on the processing

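No paired analysis was possible because a single group has peak lists and no result comes from a test. Values are counts of genes with a promoter summit, trafficking genes before protein-coding genes. With a limit of 500 or 1000 bp, 5 trafficking genes had a summit in replicate 1 and 5 in both lists (Rab27 and Sec63 added, so 1 Sec gene in each). At those limits Vps genes in replicate 2 numbered 11 and 12. At 1000 bp, protein-coding genes numbered 1210 in replicate 1 and 1167 in both lists. With canonical TSSs only, 1 trafficking gene remained in replicate 1 and in both lists, a Rab gene (Rab3). With a reciprocal overlap of at least 50%, 1 (Rab32) was in both lists, a Rab gene, and 452 protein-coding genes were. With the higher-scoring 50% of each list, 15 trafficking genes and 0 Vps genes had a summit in replicate 2, and protein-coding genes numbered 444 in replicate 1, 2453 in replicate 2 and 430 in both. With replicate 2 cut to as many peaks as replicate 1, replicate 2 gave 5 trafficking genes (4 Rab, 1 Sec and 0 Vps) and 893 protein-coding genes. With 1 list left out, in both lists becomes the other list alone, which gave 3 to 29 trafficking genes, 3 to 16 Rab, 0 to 6 Sec, 0 to 7 Vps and 768 to 4318 protein-coding genes. The remaining 116 values counted as unchanged under the alternatives run. Counts of genes had to stay within 1.5 times the main count, and word shares within the main interval. Median percentile and median position had to move by less than 1 standard deviation of the members' values, a wide allowance. Some counts could not change, such as those of replicate 1 when only replicate 2 was cut, and a count of 0 could not fall. Set against protein-coding genes under the same setting, 12 of 112 shares of trafficking genes changed sides, each with that background inside its interval. Among these, the higher-scoring 50% gave 3.90% of trafficking genes in both lists, against 3.08%, and 3.90% in replicate 1, against 3.18%. Canonical TSSs gave 26.3% of Sec genes in replicate 2, against 26.5%, and the distances of 500 and 1000 bp put Vps genes above the background in replicate 2. AAAGCT changed sides as well when the window was cut to 50 bp on either side. The causes were not tested, beyond fewer peaks, samples or TSSs entering by construction. Depth is unknown, and the short replicate 1 list limits what can be found in both.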
